A study of Mus musculus with 6 samples.

Results

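The 10 genes described here encode secreted metalloproteinases of the ADAMTS family: Adamts1, Adamts4, Adamts5, Adamts6, Adamts7, Adamts9, Adamts10, Adamts12, Adamts15 and Adamts16. They were chosen by name, as rows of the authors' gene table that carry the Entrez identifiers of these mouse genes, and make up 10 of 23073 genes measured on both array designs of the series. All 10 passed the filter on dim probes and were among 16742 genes tested. RNA came from SMA-GFP transgenic mice, in which the promoter of smooth muscle actin drives a green fluorescent reporter. The first group, called wound cells, had the high reporter signal (SMA-GFP+++) and was sorted out of skin wounds 7 days after injury. The second, called skin cells, had the low signal (SMA-GFP+) and came from dermis. All cells of both groups were negative for CD45, a leukocyte marker, and CD31, an endothelial marker. The labels name the wound cells myofibroblasts and the skin cells fibroblast-like, and give neither strain, age nor the number of animals. Each group had 3 single-colour Agilent arrays, with replicates 1 and 2 on array design 026655 and replicate 3, so numbered only for naming, on design 028005. Reporter level and injury differ together between the groups and cannot be told apart. The labels do not tie replicates to separate mice. The p-values therefore measure the spread of these 6 arrays alone, and that spread may be technical.

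ADAMTS proteases carry a catalytic metalloproteinase domain followed by a disintegrin-like module and thrombospondin type 1 repeats, which tie them to the extracellular matrix. They are made with a propeptide that furin-like convertases remove, and TIMP3 is the best known inhibitor of the aggrecan-cleaving members. In skin, their substrates include versican, a large proteoglycan that binds hyaluronan in the loose matrix of wounds, and members of the family also act on or beside fibrillin microfibrils.

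Levels below are log2 signals relative to the 75th percentile of the same array, so that 0 is the brightness of that percentile. They compare arrays of the same design for a given gene, and not different genes with each other. SDs and the overlap of the groups span both designs, and so also hold the difference between designs. Differences are wound minus skin on the log2 scale. Spots well above background made up between 64.4% and 71.1% on wound arrays and between 65.2% and 72.6% on skin arrays, and no array had a saturated spot (0 on each). Acta2, the gene whose promoter the transgene uses, stood 26.1-fold above skin cells in the wound cells (log2 4.70, SE 0.16, limma adjusted p = 5.23e-05), which checks the labels and is no independent result. Of 8 fibroblast markers, 7 did not pass the threshold and 1, Pdgfra, was lower in wound cells (log2 -1.30), and every one was well above background on all 6 arrays. Of 8 mural cell markers 6 were higher, with summed linear signals of 74.8 to 199 in wound cells and 19.7 to 44.7 in skin cells, in units of the 75th percentile. The mural markers Pdgfrb (log2 0.25, limma adjusted p = 0.266) and Cspg4 (log2 -0.17, adjusted p = 0.474) did not pass the threshold. Of 8 keratinocyte markers 7 were lower, with summed signals of 4.18 to 10.03 in wound cells and 16.5 to 38.4 in skin cells, and Krt1 and Cdh1 were not well above background on any wound array. Krt1, Cdh1, Dsp and Epcam passed the filter on dim probes through the skin arrays only. Of the 4 keratinocyte markers tested where detection on all 6 arrays was required, 3 were lower. Of 6 tested leukocyte markers 0 passed the limma threshold, while Adgre1 and Cd79a had an unadjusted p under 0.05 (adjusted p = 0.0802 and 0.0871). Of 7 tested endothelial markers, Emcn and Tek were higher. Emcn passed the filter on dim probes through the wound arrays only. Where detection on all 6 arrays was required, 1 of 6 endothelial markers was higher.

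Among the 10 proteases, 6 were higher in wound cells, 1 was lower and 3 did not pass the threshold of an adjusted p under 0.05. Adamts16 had the greatest difference of the 10, followed by Adamts9, Adamts7 and Adamts15, then Adamts12 and Adamts4, while Adamts10 was 3.07-fold lower. Adamts1, Adamts5 and Adamts6 stayed near 0. Of all 16742 genes tested, 34.0% were called, 18.5% higher and 15.6% lower. That balance turned over under other scalings, with 2601 higher and 2988 lower when arrays were scaled on detected probes alone, and 2493 higher and 2711 lower in the authors' deposited table. Adamts16 passed the filter through the wound arrays only, so it had to differ. The other 9, measured on all 6 arrays, had 5 higher and 1 lower where detection on all 6 was required. The median difference was 1.02 over the 10 proteases and 0.04 over all genes. Wound and skin arrays did not overlap for 5 of the 10. Adamts7, Adamts9, Adamts15 and Adamts16 lay above, as did 8.56% of 16664 genes with a value on all arrays, and Adamts10 lay below, as did 8.47%. Both replicate 3 arrays, which are of the other design, read high. Replicate 3 was the highest wound array for 9 of the 10 genes and the highest skin array for all 10. The percentile used for scaling was taken over all probes of an array, 39429 on design 026655 and 55681 on design 028005. Levels of the array designs are therefore on different scales, and how far this sets the high replicate 3 values was not tested. The test held the array design as a term, and pairs within a design are given beside the pooled values. In the same wound arrays 6 of 8 mural cell markers were higher and 7 of 8 keratinocyte markers lower. The part of these cell types in the differences was not tested. In RNA from sorted bulk cells, fewer cells of a type and less RNA per cell cannot be told apart.

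**Figure D1:**
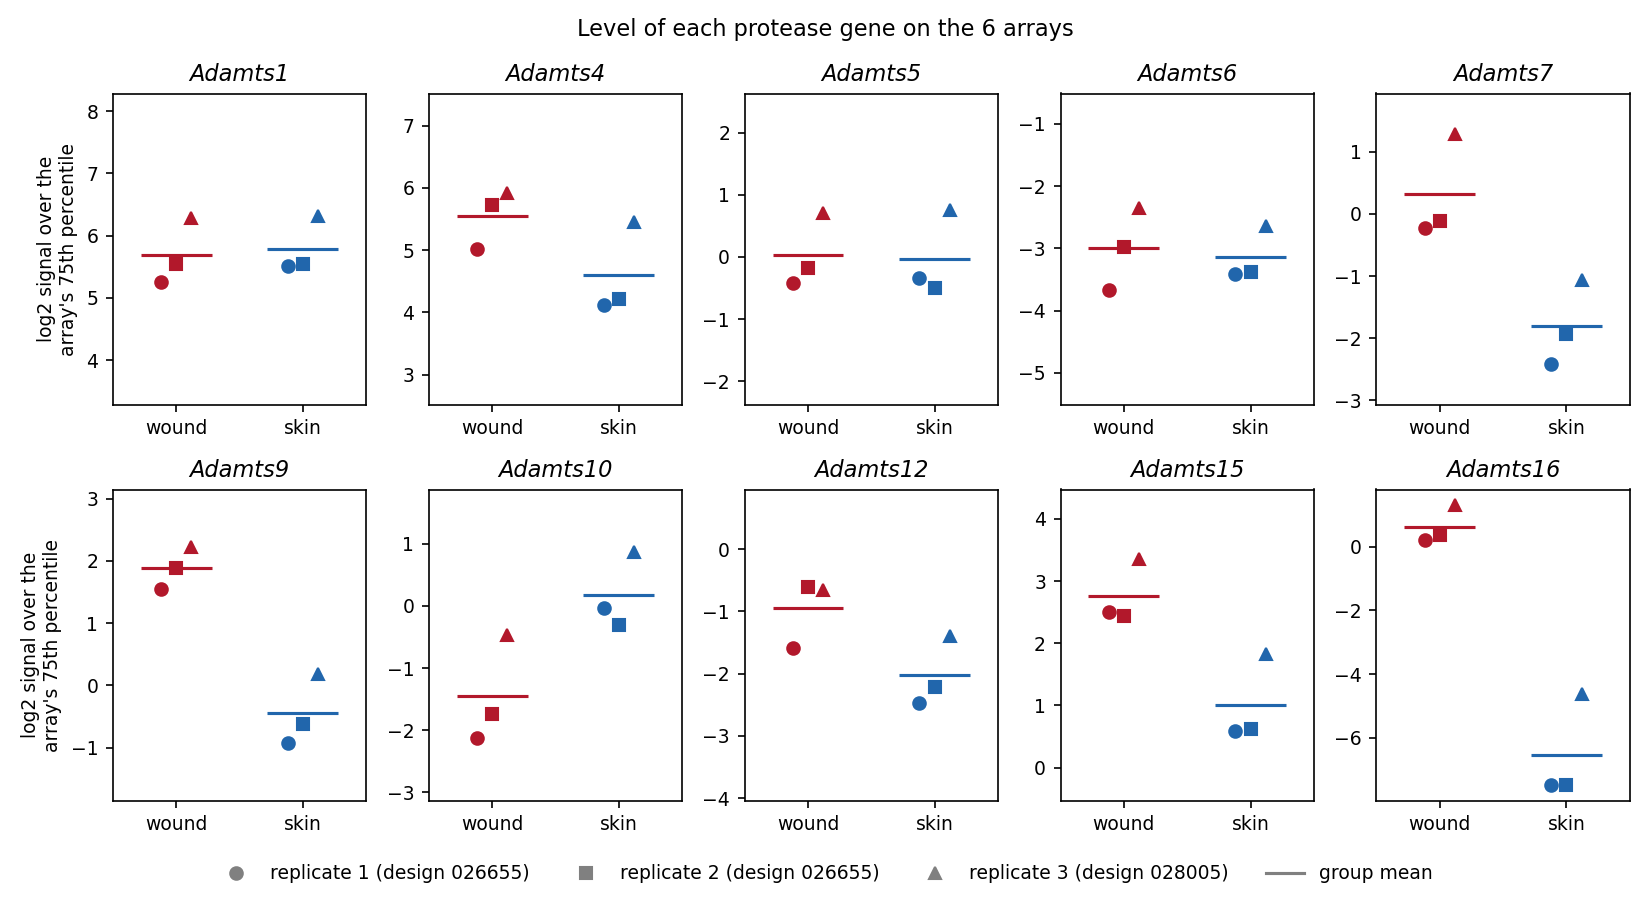
Level of the 10 protease genes on each array, as log2 signal over the array's 75th percentile (vertical axes span at least 5 units and differ between genes), with wound arrays left of skin arrays, symbols for replicates and a line at the group mean. Adamts16 lies between 0.21 and 1.29 on wound arrays and between -7.48 and -4.64 on skin arrays, while the groups of Adamts1, Adamts5 and Adamts6 overlap.

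The first 2 genes encode the proteases best known for cutting aggrecan in cartilage. Adamts4 (Entrez gene 240913, chromosome 1), an aggrecanase whose message is induced by inflammatory cytokines, had levels of 5.02, 5.73 and 5.91 on wound arrays 1, 2 and 3, against 4.12, 4.22 and 5.45 on skin arrays 1, 2 and 3. Skin array 3 lay above wound array 1, so the groups overlap, but within each design every wound array was above every skin array. The difference was 0.96 (SE 0.25, 1.94-fold, limma adjusted p = 0.0301), with pairs of 0.91, 1.51 and 0.47. The call was lost in several alternatives: adjusted p was 0.106 without skin replicate 1, 0.0907 without skin replicate 2, 0.0519 without wound replicate 1, 0.0702 with quantile normalisation and 0.0527 when arrays were scaled on detected probes alone. A second, dimmer Adamts4 probe gave 1.26 (SE 0.21, adjusted p = 0.00637 over all probes), with pairs of 1.18, 1.59 and 1.02.

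Adamts5 (Entrez gene 23794, chromosome 16) encodes the main aggrecanase of mouse cartilage and also cuts versican. Its levels were -0.42, -0.18 and 0.70 on wound arrays, against -0.34, -0.51 and 0.76 on skin arrays, and the groups overlap throughout. The difference was 0.06 (SE 0.15, adjusted p = 0.789). Its 2 probes are about equally bright, so the brighter was a different probe on each design. Taken probe by probe over both designs they gave 0.03 and -0.21 (adjusted p = 0.905 and 0.401). The sign of the pooled value turned under several alternatives given in the closing section, and no difference of Adamts5 was detectable with 3 arrays a group.

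Adamts1, Adamts9 and Adamts15 encode proteases that cut versican. Adamts1 (Entrez gene 11504, chromosome 16), needed in the mouse for ovulation and for normal urinary tract structure, had levels of 5.26, 5.54 and 6.29 in wound cells and 5.51, 5.54 and 6.31 in skin cells. The arrays of the same design differed little, and the difference was -0.09 (SE 0.15, adjusted p = 0.684). Its probe was well above background and unsaturated on all 6 arrays.

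Adamts9 (Entrez gene 101401, chromosome 6), the family member conserved down to the nematode GON-1 protease, had levels of 1.55, 1.89 and 2.22 in wound cells, against -0.92, -0.61 and 0.19 in skin cells. Every wound array was above every skin array, and Adamts9 rose 5.04-fold (log2 2.33, SE 0.19, adjusted p = 0.000365). The size rests on the probe. A dimmer probe of Adamts9, annotated to a different transcript accession, was well above background on all 6 arrays and gave 0.77 (SE 0.27, adjusted p = 0.0780 over all probes), with pairs of 0.54, 0.94 and 0.83 against 2.47, 2.50 and 2.03 for the brighter probe. The mean of both probes gave 1.55, and 1.49 was the value in the authors' deposited table. Whether the 2 probes differ was not tested.

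Adamts15 (Entrez gene 235130, chromosome 9) had levels of 2.49, 2.43 and 3.35 in wound cells and 0.59, 0.62 and 1.82 in skin cells. The groups did not overlap, and the pairs differed by 1.91, 1.81 and 1.53. Adamts15 rose 3.37-fold (log2 1.75, SE 0.15, adjusted p = 0.000416), and it was called under each of the 18 alternatives with a test. The 18 are not separate checks. Leaving out wound replicate 3, skin replicate 3 or both was the same fit (log2 1.86). The stricter threshold of 0.01 reused the main fit. The call was narrowest without the array design term (limma adjusted p = 0.0472).

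Promoter sequences from RefSeq (build GRCm38.p6) were matched for only 3 of the 10 genes, and all 3 are shown. Of these genes, Adamts9 and Adamts12 were higher in wound cells and Adamts1 did not pass the threshold. Each sequence runs 5′ to 3′ over 250 bases before and 50 after the gene's start. Capitals mark GC boxes (GGGCGG on either strand) and the TATA box (TATAAA on either strand), which overlap each other nowhere. The Adamts9 window is chr6:92943485-92943784, minus strand, that of Adamts12 is chr15:11064523-11064822, plus strand, and that of Adamts1 is chr16:85803064-85803363, minus strand.
Adamts9: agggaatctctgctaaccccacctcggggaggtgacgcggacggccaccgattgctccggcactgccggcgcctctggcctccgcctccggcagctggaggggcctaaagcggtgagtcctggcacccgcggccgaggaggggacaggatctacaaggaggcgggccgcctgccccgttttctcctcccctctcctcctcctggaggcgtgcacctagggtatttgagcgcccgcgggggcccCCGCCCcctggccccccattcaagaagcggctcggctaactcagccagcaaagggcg
Adamts12: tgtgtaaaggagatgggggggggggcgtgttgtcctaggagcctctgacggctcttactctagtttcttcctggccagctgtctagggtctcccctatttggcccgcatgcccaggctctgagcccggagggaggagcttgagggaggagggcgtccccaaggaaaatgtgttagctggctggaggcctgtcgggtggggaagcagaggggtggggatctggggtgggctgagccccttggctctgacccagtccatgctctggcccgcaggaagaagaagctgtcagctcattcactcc
Adamts1: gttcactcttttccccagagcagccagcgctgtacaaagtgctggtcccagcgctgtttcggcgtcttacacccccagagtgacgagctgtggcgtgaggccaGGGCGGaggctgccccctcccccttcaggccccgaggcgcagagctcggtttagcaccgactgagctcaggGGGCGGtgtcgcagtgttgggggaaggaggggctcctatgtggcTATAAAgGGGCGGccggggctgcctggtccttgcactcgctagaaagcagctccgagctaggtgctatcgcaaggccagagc
Adamts1 has 3 GC boxes and 1 TATA box, the TATA box with its first base at -32 from the start, and Adamts9 has 1 GC box at -7. None of these letters occur in the Adamts12 window. Of 32851 such promoters, 35.7% hold a GC box and 13.6% a TATA box. The AP-1 site TGANTCA (7.81% of promoters), the TEAD site GGAATG (14.7%) and the CArG box bound by serum response factor (1.63%) were searched on both strands and have no match in the 3 windows. The G and C content was 70.0% for Adamts9, 62.0% for Adamts12 and 64.7% for Adamts1, against a median of 52.7%. A link between these sequences and the wound minus skin differences was not tested.

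Adamts7 and Adamts12 encode a pair of closely related proteases with a mucin-like domain, both reported to bind and cut cartilage oligomeric matrix protein. Adamts7 (Entrez gene 108153, chromosome 9), whose human counterpart lies at a coronary artery disease locus, had levels of -0.24, -0.12 and 1.28 in wound cells, against -2.41, -1.93 and -1.06 in skin cells. The groups did not overlap, and Adamts7 rose 4.32-fold (log2 2.11, SE 0.19, adjusted p = 0.000481). The 3 pairs gave 2.18, 1.82 and 2.34.

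Adamts12 (Entrez gene 239337, chromosome 15) had levels of -1.58, -0.61 and -0.65 in wound cells and -2.47, -2.22 and -1.40 in skin cells. Wound array 1 lay below skin array 3, which is of the other design, and within each design the groups did not overlap. Adamts12 rose 2.12-fold (log2 1.08, SE 0.29, adjusted p = 0.0295), and its dimmer probe gave 0.78 (SE 0.21, adjusted p = 0.0340 over all probes). The call was lost without skin replicate 1 (adjusted p = 0.1005) and without skin replicate 2 (0.0766). Scaling arrays on detected probes alone gave an adjusted p of 0.0514.

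Adamts6 and Adamts10 form another closely related pair, and both proteins act beside fibrillin microfibrils. Mutations of human ADAMTS10 cause Weill-Marchesani syndrome, with short stature and lens dislocation. Adamts10 (Entrez gene 224697, chromosome 17) had levels of -2.13, -1.74 and -0.47 in wound cells, against -0.04, -0.31 and 0.86 in skin cells. All wound arrays lay below all skin arrays, and Adamts10 fell 3.07-fold (log2 -1.62, SE 0.19, adjusted p = 0.00137). Its dimmer probe, well above background on all 3 skin arrays but only on wound array 1, gave -1.71 (SE 0.35, adjusted p = 0.0126 over all probes). The pairs were -2.09, -1.43 and -1.34 for the brighter probe and -1.97, -0.65 and -2.52 for the dimmer. Without the design term the call was lost (adjusted p = 0.0802). Of 8 keratinocyte markers 7 were lower in the same wound arrays, and the part of keratinocytes in this difference was not tested.

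Adamts6 (Entrez gene 108154, chromosome 13), the partner of Adamts10, had levels of -3.67, -2.98 and -2.35 in wound cells and -3.42, -3.38 and -2.63 in skin cells. The pairs went both ways, at -0.25, 0.40 and 0.28. The difference was 0.14 (SE 0.21, adjusted p = 0.644), so it was smaller than its own SE.

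Adamts16 (Entrez gene 271127, chromosome 13) encodes an orphan protease whose substrates are poorly known, studied mostly in kidney, testis and blood pressure. Its brighter probe had levels of 0.21, 0.37 and 1.29 in wound cells, against -7.48, -7.47 and -4.64 in skin cells. As processed signals these were 871, 797 and 1273 on wound arrays and 3.99, 4.27 and 18.4 on skin arrays. The probe was well above background on all 3 wound arrays and on 1 of the 3 skin arrays, replicate 3. That pair, in which both arrays measured the probe, gave 61.0-fold (log2 5.93). This size is not firm either, since it rests on 1 pair and a dim skin signal. The skin level of -4.64 lay near the lowest level well above background on that array, -5.35. The pairs whose skin array was not well above background gave log2 7.68 and 7.83. The model over all arrays gave 7.15 (SE 0.37, adjusted p = 0.000101), a value that rests in part on those skin signals and has no firm size. Normexp background correction, which adds 50 to each signal and so draws dim signals together, gave 3.65 (adjusted p = 7.61e-08). Where detection on all 6 arrays was required, Adamts16 was not tested.

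The dimmer probe of Adamts16 stood at -4.99 and -4.84 on wound arrays 1 and 2, against -8.02, -7.35 and -7.66 on the skin arrays. Its spot on wound array 3 carried an outlier mark and was left out, so it could not be tested in the same way. It was well above background on both wound arrays that remained and on none of the skin arrays, with differences of 3.03 and 2.51 in pairs 1 and 2. The mean of both probes gave a difference of 5.99, and on wound array 3 it holds only the brighter probe.

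**Figure D2:**
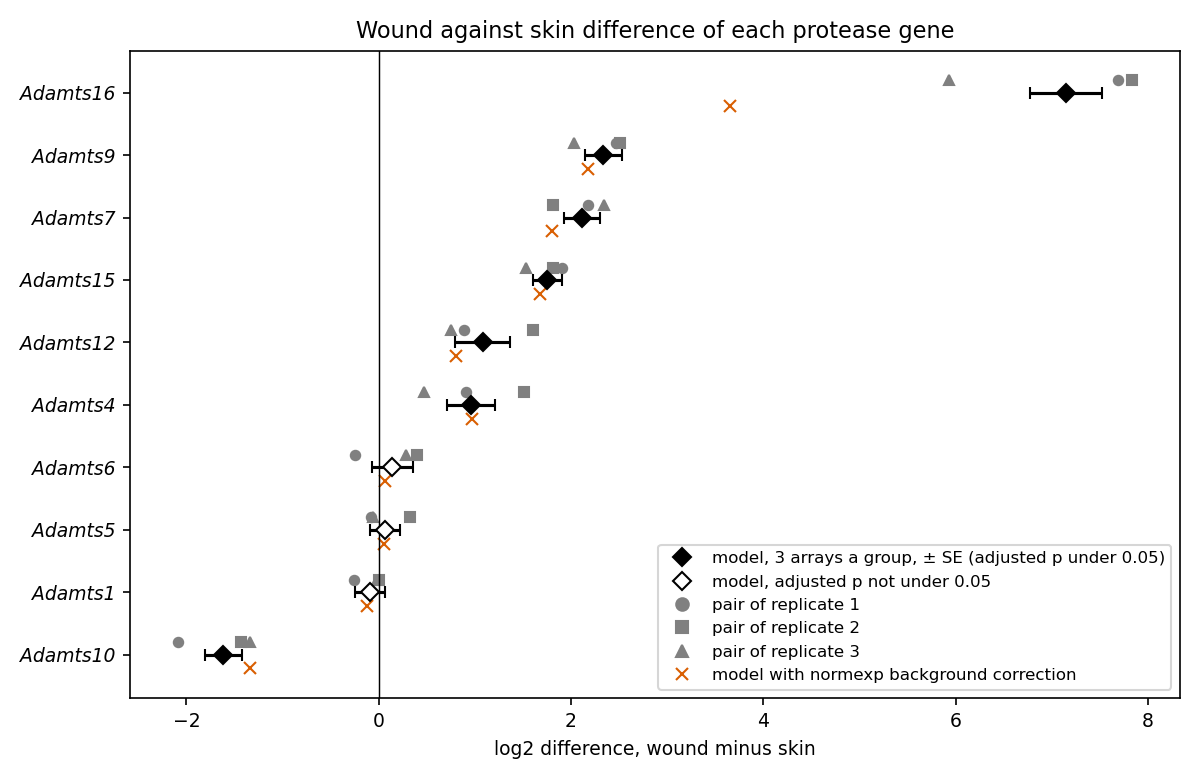
Wound minus skin difference on the log2 scale for the 10 genes, sorted. Diamonds are the model over 3 arrays a group with its SE (filled where the adjusted p is under 0.05), grey symbols the pairs of replicates 1, 2 and 3, and crosses the model after normexp background correction. Adamts16 drops to 3.65 under normexp, while Adamts9 stays at 2.18 and Adamts10 at -1.34.

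Read probe by probe, the array held 16 probes for the 10 genes, with 2 probes for 6 of them and 1 for the other 4. Of the 15 that were tested 8 were higher in wound cells and 2 lower, while of 25791 probes 28.8% were called, 15.2% higher and 13.6% lower. Both probes were called in the same direction for Adamts4, Adamts10 and Adamts12, and neither for Adamts5. For Adamts9 only the brighter was called, and for Adamts16 only the brighter could be tested.

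**Figure D3:**
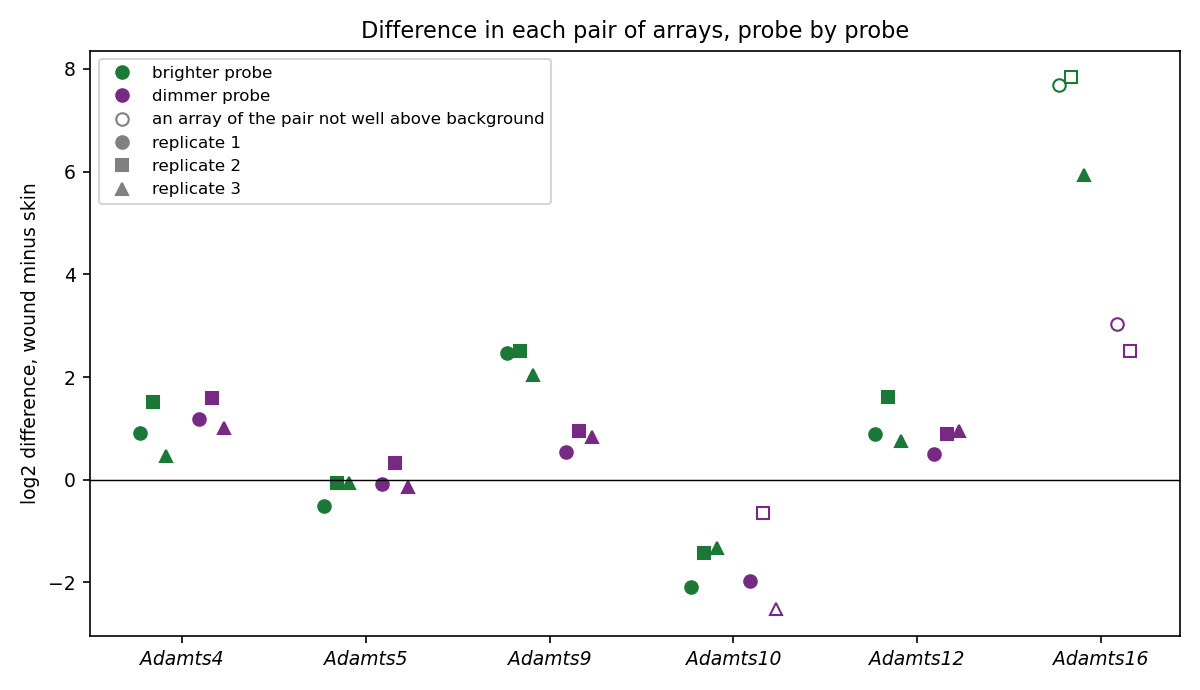
Wound minus skin difference on the log2 scale in each pair of arrays for the 6 genes with 2 probes, the brighter probe in green and the dimmer in purple. Open symbols mark pairs in which an array was not well above background. The probes of Adamts9 lie apart, at 2.03 to 2.50 and 0.54 to 0.94, and those of Adamts4 lie together.

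The remaining ADAMTS proteases went both ways. Of 9 listed, 7 were tested, of which 4 were higher, 1 was lower and 2 did not pass the threshold, with a median of 2.34. Of the 4, Adamts3 and Adamts19 passed the filter through the wound arrays only, and over the 5 genes measured on all 6 arrays 2 were higher and 1 lower, with a median of 0.75. Adamts19, measured on 1 of 3 skin arrays, gave 1.87 in that pair, 3.90 in the model (SE 0.59, adjusted p = 0.00365) and 1.41 under normexp. Adamts17, like Adamts10 a gene of Weill-Marchesani-like syndromes in humans, rose 11.8-fold (log2 3.56, SE 0.17, or 2.70 with the mean of all probes and 2.90 under normexp). Adamts8, reported to inhibit angiogenesis, fell 5.32-fold (log2 -2.41, SE 0.24, or -1.32 with the mean of all probes). The ADAMTS-like proteins, which share the ancillary domains but lack the protease, had 0 of 6 tested genes higher, 4 lower and 2 not past the threshold, with a median of -1.63, beside 18.5% higher and 15.6% lower over all genes. Without the array design term 2 of the ADAMTS-like genes were lower. Whether the lists differ was not tested. Adamtsl5 fell 4.84-fold (log2 -2.28, SE 0.19, or -1.24 with the mean of all probes) and Thsd4, also called Adamtsl6 and a promoter of fibrillin assembly, fell 3.67-fold (log2 -1.87, SE 0.31, or -0.81 under normexp). For the ADAMTS-like list the count of 0 higher is that of the limma fit, in which the lone positive value was that of Adamtsl1 (0.34, adjusted p = 0.355).

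Proteoglycan substrates went both ways. Versican (Vcan) rose 2.04-fold, with a mean level of 3.29 ± 0.37 in wound cells and 2.26 ± 0.70 in skin cells (SD, n = 3 each, limma adjusted p = 0.00655). Aggrecan (Acan) was at -1.15 (adjusted p = 0.0515), and passed the threshold as lower in several alternatives, among them normexp (adjusted p = 0.0142), quantile normalisation (0.0482), scaling on detected probes (0.0487) and the authors' deposited table (0.0390). Of the 7 tested hyalectans and link proteins 3 were higher and 2 lower, beside 18.5% higher and 15.6% lower over all genes. Without the array design term 1 was higher and 1 lower. Of the 3 genes measured on all 6 arrays 1 was higher and, where detection on all 6 was required, 2 were lower. Bcan, the mostly neural brevican, had a difference of 3.38 and Hapln4, a link protein, of 1.69, each measured on 1 of 3 skin arrays, with 1.23 and 0.39 under normexp, where Hapln4 lost its call (adjusted p = 0.0557). Bcan and Hapln4 passed the filter on dim probes through the wound arrays only, and Hapln1 through the skin arrays only. Hapln3 fell 2.29-fold, and Hapln1, not well above background on any wound array, was at least 1.73-fold lower (adjusted p = 0.00918), a call lost under normexp (adjusted p = 0.124). That bound sets the mean of the skin arrays against the higher of each wound array's own signal and its lowest signal well above background.

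Of 13 other reported substrates and matrix partners 7 were higher, 3 lower and 3 did not pass the threshold, with a median of 0.90. Over all genes 18.5% were higher and 15.6% lower. Without the array design term 2 of the 13 were higher and 2 lower. Fibrillin 2 (Fbn2), a microfibril protein most abundant in development, rose 11.5-fold (log2 3.53, SE 0.28), and Tfpi2, a serine protease inhibitor reported as a substrate of ADAMTS1, rose 5.73-fold (log2 2.52, SE 0.21). Fibromodulin (Fmod), a collagen-binding proteoglycan, fell 5.55-fold (log2 -2.47, SE 0.28), and the latent TGF-beta binding protein Ltbp1 fell 3.94-fold (log2 -1.98, SE 0.15, or -0.90 with the mean of all probes).

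Among inhibitors, anchors and clearance receptors, 2 of 8 tested were higher, 4 lower and 2 not past the threshold, with a median of -0.60. Over all genes 18.5% were higher and 15.6% lower. Without the array design term 2 of the 8 were higher and 1 lower. Timp3 fell 1.71-fold, with a mean level of 4.28 ± 0.82 in wound cells and 5.05 ± 0.99 in skin cells (SD, n = 3 each, limma adjusted p = 0.0118), and lost its call on design 026655 alone (0.0564) and without skin replicate 1 (0.0631), and stood at an adjusted p of 0.7503 without the design term. Reck, a membrane-anchored protease inhibitor, fell 8.79-fold (log2 -3.14, SE 0.18), and Sdc4, a syndecan that binds ADAMTS5 in cartilage, fell 3.23-fold (log2 -1.69, SE 0.15). Timp1, a broad inhibitor of matrix metalloproteinases, rose 11.7-fold (log2 3.54, SE 0.20), and Sdc1, another syndecan, 4.30-fold (log2 2.11, SE 0.17).

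Of 7 genes that activate and fold the proteases, 4 were higher and 0 lower in the limma fit of all 6 arrays with the design term. Over all genes 18.5% were higher and 15.6% lower. The lowest value of the 7 was that of Pcsk6 (-0.58, adjusted p = 0.137). With replicate as the block, and also without skin replicate 2, 5 were higher and 1 lower. Without the design term 1 was higher and 0 lower. Pcsk5, a proprotein convertase, rose 3.78-fold (log2 1.92, SE 0.19), and Mmp17, a membrane metalloproteinase reported to activate ADAMTS4, rose 2.73-fold (log2 1.45, SE 0.17). Of 14 genes reported to induce family members, 11 were tested. In the fit of all 6 arrays with the design term 9 were higher and 0 lower, beside 18.5% of all genes higher. The lowest value was that of Il6 (-0.27, adjusted p = 0.350). Between 6 and 9 were called higher in the other alternatives, and 2 without the array design term. Runx2, a transcription factor of bone, lost its call under normexp (adjusted p = 0.0829), Tgfb1, a growth factor of fibrosis, with scaling on detected probes (0.0591), and Osmr, the oncostatin M receptor, with quantile normalisation (0.0526). The transcription factors Sox4 and Sox11, which induce ADAMTS5 in cartilage cells, rose 5.205-fold (log2 2.38, SE 0.19) and 3.40-fold (log2 1.77, SE 0.28). Adamts5 stood at 0.06, or -0.21 with the same probe on both designs, and a link between these genes was not tested. Il1a, Il1b and Osm did not pass the filter on dim probes.

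**Figure D4:**
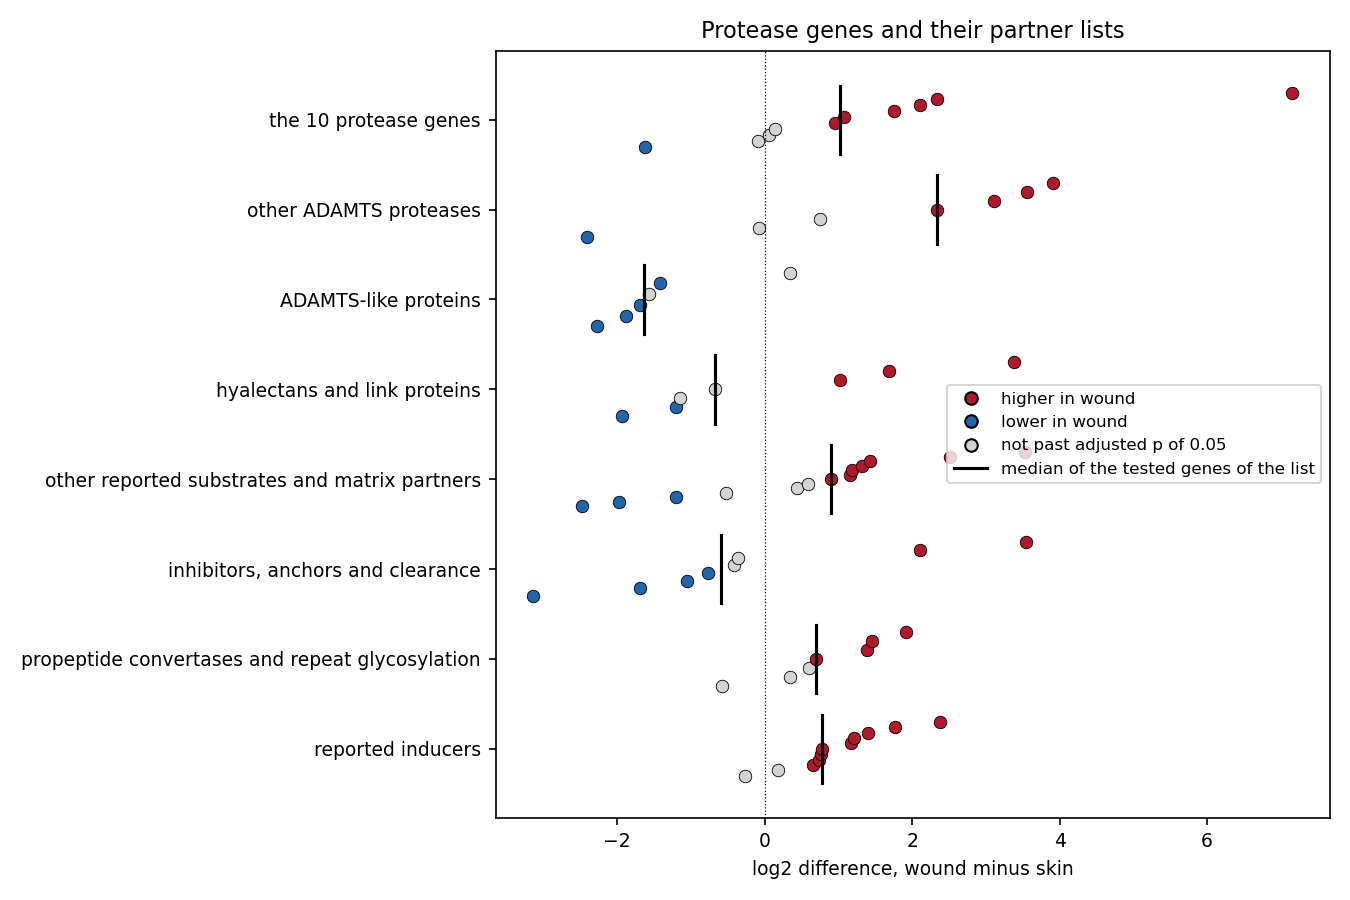
Wound minus skin difference on the log2 scale for each tested gene of the 8 lists, red where higher, blue where lower and grey where not past an adjusted p of 0.05, with a bar at the list's median. The medians are 1.02 for the 10 protease genes, -1.63 for the ADAMTS-like proteins and -0.60 for inhibitors, anchors and clearance.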

How the data were processed

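The 6 mouse samples, 3 of wound and 3 of skin cells, were each measured on 1 array. Per the file headers, the authors extracted spots with Agilent Feature Extraction 10.7.3.1 (design files of build mm9), and the scanner files they deposited hold linear intensity that is not scaled between arrays. The 0 or 1 flags deposited beside them mark spots well above background, saturated or outlying. Per the series' design text, about 50 ng of RNA was amplified and the authors made gene values in GeneSpring 14.5. That table states no scale. Differences between its columns matched log2 differences of the scanner values (slopes 1.00, 1.00 and 0.976 for replicates 1, 2 and 3), so the values deposited by the authors were read as log2, made in GeneSpring per the series' design text. Its column medians are -0.28, -0.27 and -0.23 for wound and -0.21, -0.25 and -0.25 for skin replicates 1, 2 and 3. Each gene is centred within its array design, since the replicate 3 columns sum to -0.48 for every gene, so the table holds differences and not levels.

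Control spots and outlier spots were left out and spots of a probe averaged. Probes were named through the identifiers of the authors' table, otherwise by RefSeq accession (GRCm38.p6, names and gene order only). The value was log2 of the processed signal over the 75th percentile of its array, with the brightest probe per gene and design. A gene was kept if all 3 arrays of either group had that probe well above background. Wound was tested against skin with limma 3.58.1 (R 4.3.3), the array design as a fixed term (a design is 1 slide scanned 1 time, and holds both groups), and Benjamini-Hochberg adjustment over all genes, or over all probes for the probe fit. Precision is limited by the number of arrays. The steps were tested on simulated data. The normexp alternative used the median spot signal in place of the mean signal first planned, which was not used here. Other alternatives are given in the closing section. Members, lists and tests were chosen with earlier results of these data known. All 10 members were named, then Acta2, Vcan and Timp3, and from each partner list at most 2 called genes with the greatest increase and 2 with the greatest decrease. Acan, Adamts3, Adamtsl1, Pcsk6, Il6, Runx2, Tgfb1 and Osmr were named after their values were seen, as were the cell type markers.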

Additional observations from a re-analysis of the deposited data

How the results depend on the processing

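Of the 10 proteases, 7 were called, and between 5 and 7 under each alternative but the fit without the array design term, which called 4 and lost Adamts4, Adamts10 and Adamts12 (adjusted p = 0.546, 0.0802 and 0.418). Of all genes 5699 were called, 1767 without that term, 3198 at an adjusted p under 0.01, and 3761 to 5027 when 1 array was left out, the lowest without skin replicate 1. Adamts4 and Adamts12 also missed the stricter threshold of 0.01, and their adjusted p without the filter on dim probes was 0.0726 and 0.0714. Adamts5 turned to -0.031 with the percentile over detected probes, -0.088 with the mean of probes, -0.21 with the same probe on both designs, -0.057 on design 028005 by itself, and -0.15 by the authors' deposited table. With 1 array left out, Adamts5 ranged over -0.023 to 0.12, Adamts6 over -0.034 to 0.36 and Adamts1 over -0.16 to 0.0012. The cause of these changes was not tested. Adamts16 was not tested where detection on all 6 arrays was required, and gave 5.43 in the authors' deposited table. Replicate numbers are shared only by 2 pairs on design 026655, whose deviations correlated at 0.152 over genes, so they are not shown to pair the samples, and the replicate block called 5607 genes and 7 of the 10. The median over all genes lay between -0.05 and 0.08. Signal over background limits Adamts16 in skin cells and the dimmer Adamts10 probe in wound cells.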

Other observations

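In the mouse gene order of RefSeq, counting protein-coding genes, Adamts15 and Adamts8 are neighbours on chromosome 9, and Adamts1 and Adamts5 on chromosome 16. The first pair differed in opposite directions, with Adamts15 at 1.75 (limma adjusted p = 0.000416) and Adamts8 at -2.41 (adjusted p = 0.000702) in wound over skin cells on the log2 scale. Adamts8 lay below its skin mean, with -1.38 ± 0.76 in wound cells and 1.03 ± 0.42 in skin cells (SD, n = 3 each). Neither gene of the second pair passed the threshold, with Adamts1 at -0.09 and Adamts5 at 0.06.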
